A study of Mus musculus with 8 samples.

Results

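The genes described here make, break down and transmit the cyclic nucleotide signal: adenylyl cyclases, soluble guanylate cyclase, cyclic nucleotide phosphodiesterases, the subunits of cyclic AMP-dependent protein kinase (PKA) and the A-kinase anchoring proteins. They were chosen by gene symbol, with earlier results of these data known. The rule took every probe set whose single symbol is Pde or Adcy plus a digit, or begins with Gucy1, Prkac, Prkar or Akap. That rule found 155 of the 45037 probe sets on the array, which stand for 60 of 18193 genes. The study measured RNA from striatum, the input nucleus of the basal ganglia, of mice with and without the zinc finger transcription factor Ctip2, whose gene is now called Bcl11b. All mice were BALB/c at postnatal day 0, untreated as far as the labels say, and each Affymetrix array held RNA from 1 animal: 3 wild type, 1 Ctip2 heterozygote and 4 Ctip2 null mutants. The tissue was a 500 µm wide punch from a 300 µm slice, so it held every cell type of that region. The sources used here do not say how the Ctip2 allele was made or whether animals were littermates.

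Cyclic AMP is made from ATP by adenylyl cyclases, which receptors switch on or off through G proteins, and it releases the catalytic subunits of PKA from their regulatory subunits. Soluble guanylate cyclase makes cyclic GMP in answer to nitric oxide. Phosphodiesterases end both signals, and anchoring proteins hold PKA near its targets. In medium spiny neurons, the main neurons of the striatum, dopamine and adenosine receptors act largely through this chain, and mature medium spiny neurons are known for high levels of the cyclase Adcy5, the phosphodiesterases Pde10a, Pde1b and Pde7b, and soluble guanylate cyclase.

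Values are on the log2 scale as deposited, on which 1 unit is a 2-fold difference. The median of an array was 6.21 to 6.35, and the lower quartile 5.10 to 5.23 in wild type and 5.03 to 5.19 in null. The SD of all values on an array ranged from 1.84 to 1.97 in wild type and from 1.90 to 2.05 in null, and was 2.06 in the heterozygote. Bcl11b was lower in null on all 4 of its probe sets, by 2.16-fold to 3.16-fold. Of a list of 10 medium spiny neuron markers, 9 were measured and all 9 lay above the array median in every wild type animal. Of these, 3 passed as lower in null (Ppp1r1b, Drd1 and Gpr6) and 0 as higher. Foxp2 lay higher in every null animal without passing (difference 0.63, limma adjusted p = 0.105). Penk and Tac1 differed by 0.21 and 0.14, and Drd2, Rgs9 and Foxp1 by -0.21, -0.28 and -0.22, each with overlap. The summed linear signal of the 9 markers, which the brightest weigh most, spanned 11823 to 13334 for wild type and 10648 to 13094 for null. The heterozygote was at 17740. By the mean of the 9 log2 values every null animal lay below every wild type animal (8.87 to 9.18 against 9.27 to 9.73). The heterozygote was at 10.04 by that measure. Of the 6 cortical markers measured, Tbr1 and Neurod6 were below the lower quartile, with wild type means of 3.14 and 3.68. Slc17a7 and Slc17a6, at 5.01 and 5.40, lay below the array median in all 7 wild type and null animals. Neurod2 and Emx1, at 7.51 and 7.35, lay above it in all 7. Summed choroid plexus markers (6 of 7 measured) varied within each group, from 1024 to 10836 in wild type and from 442 to 11555 in null, mostly through Ttr, which was highest in wild type 1 and null 2. Summed signals were higher in every null animal for microglia (5 of 5 markers, 1149 to 1397 against 1540 to 2266) and for progenitors and astrocytes (6 of 6, 4688 to 6265 against 6453 to 7155). They were lower for cortical neurons (6 of 7, 424 to 468 against 349 to 413), and they overlapped for the oligodendrocyte (1121 to 1537 against 1105 to 1607), vascular (1185 to 1524 against 1236 to 1579) and blood lists (178 to 227 against 188 to 279). By the mean of log2 values, progenitors and astrocytes overlapped (8.38 to 8.77 against 8.67 to 9.10), and of their 6 markers only Sox2 passed. By that measure microglia stayed higher in every null animal (7.34 to 7.45 against 7.52 to 8.19) and cortical neurons lower (5.29 to 5.43 against 5.12 to 5.27). No marker of either list passed. Null lay above wild type without overlap on 3 of the 5 microglial markers, and below it on 1 of the 6 cortical ones. The part of any of these marker lists in the results below was not tested.

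Of the 60 genes, 6 had a probe set that changed in null striatum, 2 lower and 4 higher, where 0.852% of all genes had one lower and 3.22% one higher. The phosphodiesterase gene Pde10a fell on all 5 of its probe sets and the cyclase gene Adcy1 fell on 1 of 2. On 1 probe set each, the phosphodiesterase genes Pde4b and Pde5a, the PKA regulatory subunit gene Prkar2a and the scaffold gene Pde4dip rose. In all, 6 member probe sets passed as lower and 4 as higher at a limma adjusted p of 0.05 over all probe sets, and 145 passed in neither direction. On the whole array 0.453% of probe sets were lower and 1.87% higher, 2.32% in either direction, against 10 of 155 here. An unadjusted p under 0.05 was reached by 38 members, where 19.6% of all probe sets reached it. Since 5 of the 10 belong to a single gene, they are not independent. Wild type and null animals did not overlap on 18 members with null below, where the whole array has 8.85%, and on 17 with null above, where it has 7.70%. The median difference over the members was -0.04, beside -0.08 over all probe sets. Only Pde10a, Adcy1 and Pde4b passed on the brightest probe set of the gene, out of 60 genes, where 0.676% of all genes were lower and 2.38% higher by that measure.

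**Figure D1:**
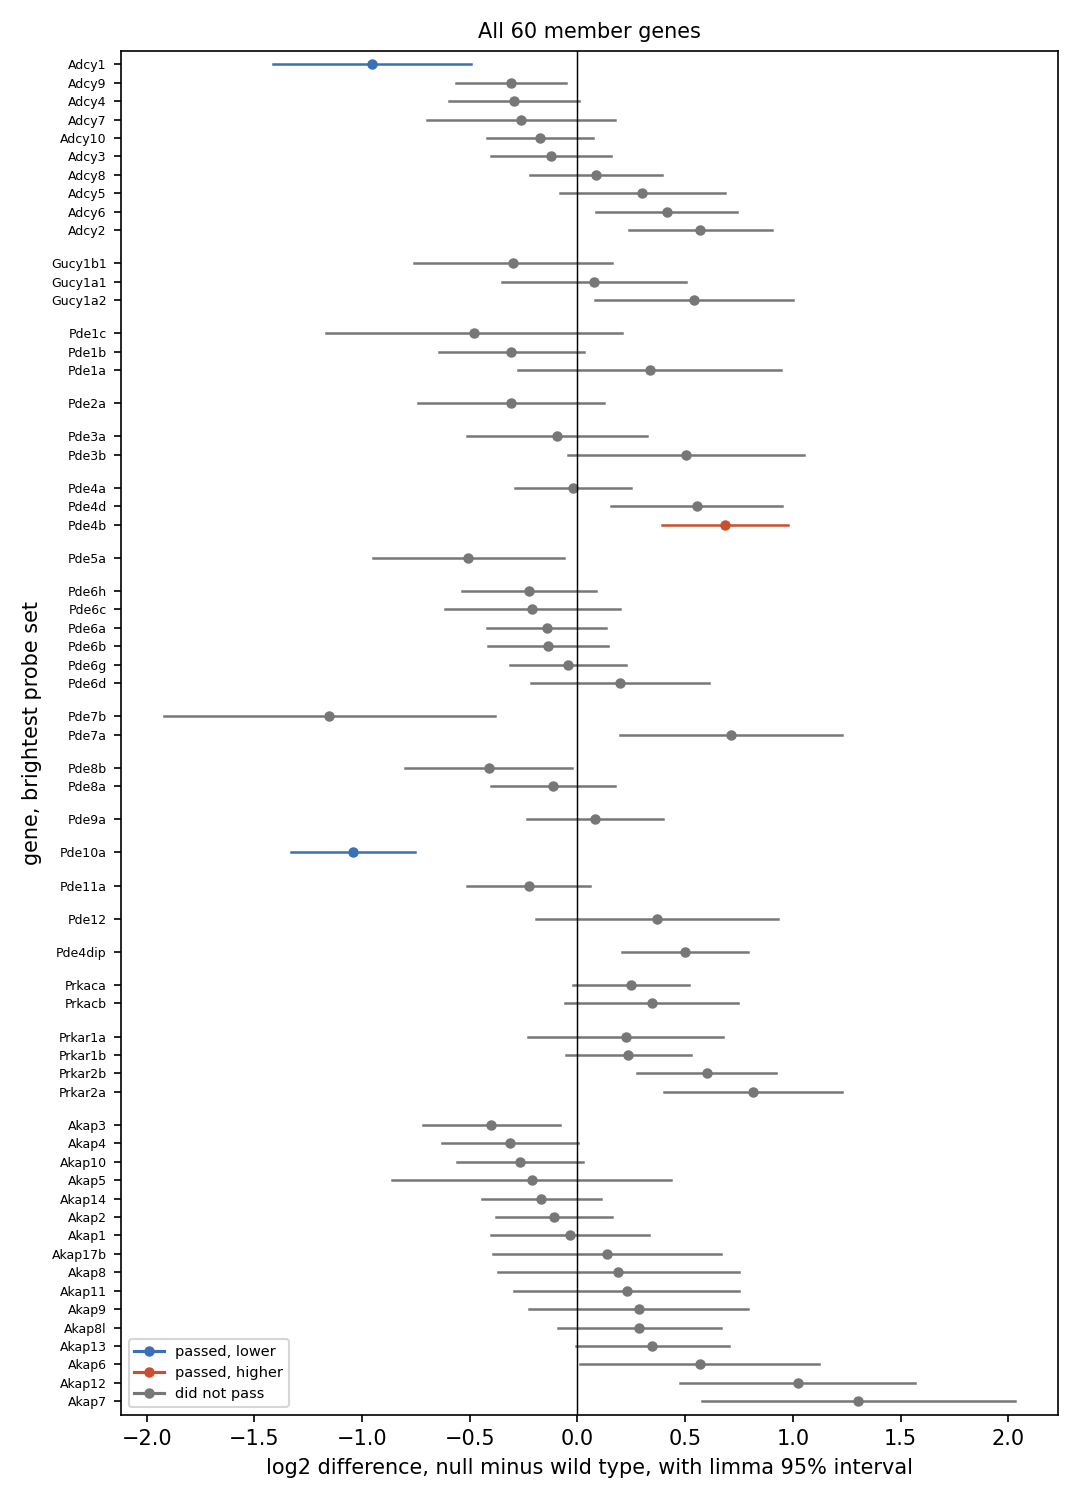
The plot shows the log2 difference between null and wild type (null minus wild type) for the brightest probe set of each of the 60 member genes, with its limma 95% interval, grouped from cyclases at the top to anchoring proteins at the bottom. Blue and red mark the 2 genes that passed as lower and the 1 that passed as higher, and grey the 57 that did not pass; all 6 PKA subunit genes lie to the right of 0.

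The 6 lower calls fell to 2 without wild type 3 and to 2 with the SD of each array as a covariate. They fell to 3 without wild type 1 and null 2, the animals of highest Ttr. Over all probe sets, lower calls went from 204 to 82, 93 and 62 in those settings. The 4 higher calls fell to 0 without wild type 2, wild type 3 or null 2. They were also 0 with the SD covariate or with the heterozygote counted as a control. They fell to 1 without null 1 or null 3 and to 2 with arrays centred on their medians, and became 9 without wild type 1 or null 4. Over all probe sets, higher calls went from 840 to 276, 210 and 282 without wild type 2, wild type 3 or null 2. There were 189 with the SD covariate and 110 with the heterozygote as a control. Without null 1 or null 3 there were 324 and 516, after median centring 548, and 1733 and 1713 without wild type 1 or null 4.

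Of the 10 adenylyl cyclase genes, Adcy1 was the 1 that changed. Adcy1 encodes a cyclase that calcium and calmodulin stimulate. Its brighter probe set (1456487_at) read 11.34, 11.17 and 10.85 for wild type 1 to 3 and 10.18, 9.66, 10.52 and 10.30 for null 1 to 4, with the heterozygote at 11.59. Values are given in this order of animals throughout. Every null animal lay below every wild type animal, and the heterozygote was the highest of all. The means were 11.12 ± 0.25 (SD, n = 3) and 10.16 ± 0.36 (SD, n = 4), a 1.94-fold fall (difference -0.96, 95% interval -1.41 to -0.50, adjusted p = 0.0463). Its other probe set (1445359_at) read 8.28 ± 0.60 (SD, n = 3) and 7.26 ± 0.33 (SD, n = 4), also without overlap, and did not pass (difference -1.02, adjusted p = 0.0919). In whole tissue, fewer cells that express a gene and less of its RNA per cell cannot be told apart, here and for every gene below. The Adcy1 call is the least firm of the falls: its adjusted p rose to 0.0721, 0.163 and 0.0862 on leaving out wild type 1, 2 or 3, to 0.108 and 0.0886 on leaving out null 1 or 2, and was 0.125 without the pair highest in Ttr, 0.0622 with the heterozygote as a control, 0.0889 after median centring and 0.196 with the SD covariate.

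Adcy5, the cyclase that couples to dopamine and adenosine receptors in medium spiny neurons, did not pass on any of its 4 probe sets. The brightest (1455296_at) read 9.04, 8.60 and 8.77 in wild type and 8.85, 9.19, 9.44 and 8.94 in null, and the heterozygote at 9.72 was above them all. Wild type and null overlapped, with means of 8.80 ± 0.22 (SD, n = 3) and 9.10 ± 0.27 (SD, n = 4) and an interval for the difference of -0.08 to 0.69. The next brightest (1447696_x_at) differed by 0.05, with an interval of -0.19 to 0.30. Adcy2, a cyclase that G protein beta-gamma subunits stimulate, and Adcy6, the closest relative of Adcy5, lay higher in every null animal without passing, by 0.57 (adjusted p = 0.0828) and 0.41 (adjusted p = 0.180). Adcy9 lay lower in every null animal on its brightest probe set, by -0.31 (adjusted p = 0.196). Adcy3, the olfactory cyclase, differed by -0.12 and Adcy7 by -0.26, each with overlap. Adcy4, Adcy8 and Adcy10, the last of them the bicarbonate-sensitive soluble form, were below the array median in all 7 wild type and null animals and differed by -0.29, 0.09 and -0.17, the last without overlap.

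Soluble guanylate cyclase, a dimer of an alpha and a beta subunit, gave no call on any of its 7 probe sets. Gucy1a1, the main alpha subunit, read 11.19, 10.42 and 10.77 in wild type, 11.05 in the heterozygote and 11.09, 10.64, 11.00 and 10.75 in null on its brightest probe set. The null animals lay within the wild type range, and the difference of 0.08 had an interval of -0.35 to 0.50. Its other probe sets differed by -0.00 and 0.06. Gucy1b1, the beta subunit, read 9.79 ± 0.18 (SD, n = 3) and 9.49 ± 0.39 (SD, n = 4) on its brightest probe set, a difference of -0.30 with an interval of -0.76 to 0.16. Gucy1a2, the other alpha subunit, differed by 0.54 (adjusted p = 0.205), from a wild type mean of 6.15, which is under the array medians.

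The phosphodiesterase family was split, with Pde10a lower and single probe sets of Pde4b and Pde5a higher among the 24 genes and 61 probe sets of Pde1 to Pde12. Pde10a encodes a dual enzyme that hydrolyses cyclic AMP and cyclic GMP and is concentrated in medium spiny neurons. On its brightest probe set (1419389_at) wild type read 10.26, 10.11 and 10.08, the heterozygote 10.14 and null 9.14, 9.19, 8.88 and 9.21. The groups were about 1 unit apart, with the heterozygote among the wild type animals. The difference was -1.04 (95% interval -1.33 to -0.75), or 2.06-fold, with an adjusted p of 0.0049. On 1432490_a_at, where Pde10a fell most, wild type read 9.72, 9.43 and 9.67, the heterozygote 8.89 and null 8.47, 8.39, 7.44 and 8.03. Here the heterozygote stood between the groups, and the fall was 2.88-fold (difference -1.53, interval -2.04 to -1.01, adjusted p = 0.0117).

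The other Pde10a probe sets were 2.76-fold (1419390_at), 2.36-fold (1439618_at) and 2.19-fold (1458499_at) lower, with adjusted p values of 0.0093, 0.0289 and 0.0089. Null and wild type did not overlap on any of the 5. The heterozygote read 8.46 on 1419390_at, between null (7.15 to 7.90) and wild type (8.66 to 9.34), while on 1439618_at and 1458499_at it read 9.13 and 9.06, within the wild type ranges of 8.69 to 9.59 and 8.74 to 9.20. Expressed as the share of the way from the wild type to the null mean, its position was 0.40 and 0.47 on 1419390_at and 1432490_a_at, and between -0.12 and 0.01 on the other 3. The exons that these probe sets read are not known here. Of the 5, 1419389_at and 1458499_at passed under all 17 alternative settings tried. The probe set 1439618_at was the least stable, at 0.0584 and 0.0698 on leaving out wild type 2 or 3, 0.0953 and 0.0657 on leaving out null 2 or 3, 0.0920 without the pair highest in Ttr, 0.0677 after median centring and 0.114 with the SD covariate. Without wild type 3, 1419390_at and 1432490_a_at had 0.0593 and 0.0656, and with the SD covariate 0.0585 and 0.0983. The latter also had 0.0539 with the heterozygote as a control and 0.0560 without that pair.

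**Figure D2:**
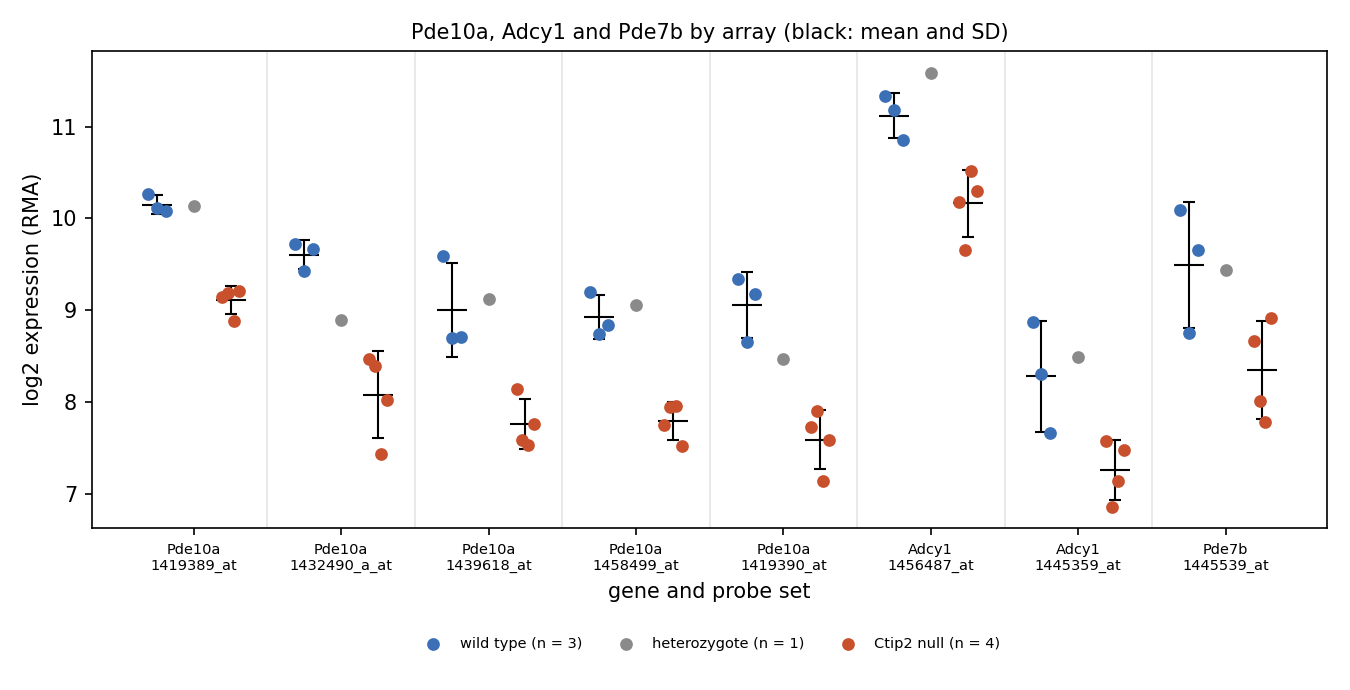
The plot gives the log2 expression value of each animal for the 5 Pde10a probe sets, both Adcy1 probe sets and the brightest Pde7b probe set, with wild type in blue, the heterozygote in grey and null in red; black marks show the mean and SD of each group. On the Pde10a and Adcy1 probe sets every null animal lies below every wild type animal, and on 1432490_a_at the heterozygote, at 8.89, lies between them.

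Promoter sequence was read for the 6 genes with a probe set that changed, and is shown for 4 of them, the 3 called on their brightest probe set and Prkar2a. RefSeq (GRCm38.p6) gives start sites for 49 of the 60 member genes, 93 in all, and the 250 bases before each were searched on both strands for TGACG, the core of the site bound by CREB-family factors, TGACCA, a word bound by Bcl11-family zinc fingers, and GGGCGG, the GC box of Sp-family factors. TGACG and TGACCA begin with the same letters and cannot match at the same position. The windows before both Pde10a starts, the Adcy1 and Prkar2a starts and the first of 4 Pde4b starts, all on the plus strand, read as follows, with the matches of any of the words in capitals.
Pde10a, chr17:8801495-8801744: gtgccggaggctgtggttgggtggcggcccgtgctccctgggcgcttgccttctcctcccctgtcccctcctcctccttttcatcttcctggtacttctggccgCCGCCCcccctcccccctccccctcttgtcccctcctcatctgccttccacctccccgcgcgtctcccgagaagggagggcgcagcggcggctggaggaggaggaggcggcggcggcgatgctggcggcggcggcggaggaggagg
Pde10a, chr17:8849735-8849984: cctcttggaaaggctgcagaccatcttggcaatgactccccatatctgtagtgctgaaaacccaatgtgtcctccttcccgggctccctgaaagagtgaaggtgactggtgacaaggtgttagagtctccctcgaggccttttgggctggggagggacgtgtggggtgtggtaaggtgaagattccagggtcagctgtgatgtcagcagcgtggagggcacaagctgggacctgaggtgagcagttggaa
Adcy1, chr11:7063183-7063432: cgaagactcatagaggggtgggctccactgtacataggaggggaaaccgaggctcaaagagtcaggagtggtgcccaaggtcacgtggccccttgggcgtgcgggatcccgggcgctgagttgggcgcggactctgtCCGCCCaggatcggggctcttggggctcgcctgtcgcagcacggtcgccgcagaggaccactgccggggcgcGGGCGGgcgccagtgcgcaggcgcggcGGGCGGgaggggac
Pde4b, chr4:102421305-102421554: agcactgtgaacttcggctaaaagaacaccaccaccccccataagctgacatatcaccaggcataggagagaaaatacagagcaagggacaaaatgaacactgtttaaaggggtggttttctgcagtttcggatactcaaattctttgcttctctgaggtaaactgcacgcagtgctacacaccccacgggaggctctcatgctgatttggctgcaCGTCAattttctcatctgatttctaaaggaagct
Prkar2a, chr9:108691893-108692142: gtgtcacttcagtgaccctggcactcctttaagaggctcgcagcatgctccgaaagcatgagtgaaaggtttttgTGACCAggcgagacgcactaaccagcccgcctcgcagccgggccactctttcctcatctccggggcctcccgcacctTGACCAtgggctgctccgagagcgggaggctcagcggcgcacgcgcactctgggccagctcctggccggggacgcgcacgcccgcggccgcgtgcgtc
Over all 11 windows of the 6 genes, TGACG occurs in the Pde4b window printed and in no other. TGACCA occurs 2 times in the Prkar2a window and in no other. GGGCGG occurs 3 times before Adcy1 and 1 time each before the first Pde10a start, the Pde5a start and 1 of 2 Pde4dip starts. Over all 32851 windows, 17.8% hold TGACG, 11.4% TGACCA and 32.7% GGGCGG, and over the 93 member windows 17.2%, 4.30% and 44.1% do. The median GC content was 52.4% over all windows and 56.0% over the member windows, and its part in these shares was not tested. A match is a run of letters and not a measured binding site, and these arrays measure RNA alone.

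Pde7b, a cyclic AMP-specific enzyme of the striatum, did not pass in the main fit on any of its 3 probe sets. Its brightest probe set (1445539_at) read 10.09, 8.75 and 9.65 in wild type, 9.44 in the heterozygote and 8.66, 8.01, 7.79 and 8.92 in null. Wild type 2 lay inside the null range, and the difference of -1.15 had an interval of -1.92 to -0.38 and an adjusted p of 0.124. With the replicate number as a block this probe set passed (difference -1.34, adjusted p = 0.0122). The other Pde7b probe sets differed by -0.43 and -0.40. Pde7a, its paralogue, differed the other way on all 7 of its probe sets, by 0.71 on the brightest (adjusted p = 0.150), and passed there without wild type 1 (adjusted p = 0.0092) or without that animal and null 2 (0.0401), and had up to 0.719 with the SD covariate. Wild type 1, at 9.30 on that probe set, read with the null animals (9.19 to 9.46), and wild type 2 and 3 read 8.23 and 8.41. Pde1b, the calcium-calmodulin-dependent enzyme abundant in medium spiny neurons, read 8.10 ± 0.19 (SD, n = 3) and 7.79 ± 0.20 (SD, n = 4), a difference of -0.31 (adjusted p = 0.284), with the heterozygote at 8.87 above both groups.

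Pde4b, a cyclic AMP-specific enzyme of the rolipram-sensitive family, rose on its brightest probe set. On 1422473_at wild type read 8.78, 8.39 and 8.59, the heterozygote 8.80 and null 9.39, 9.24, 9.30 and 9.17. The null animals lay close together above all others, with the heterozygote next to wild type 1. Means of 8.59 ± 0.19 (SD, n = 3) and 9.27 ± 0.09 (SD, n = 4) made a 1.61-fold rise (difference 0.69, interval 0.39 to 0.98, adjusted p = 0.0291). The next probe set (1422474_at) differed by 0.60 without overlap (adjusted p = 0.127), and the other 4 were below the array median in all 7 animals. Pde4d, a relative, lay higher in every null animal on its brightest probe set (difference 0.55, adjusted p = 0.147, and from 0.0211 without wild type 1 to 0.714 with the heterozygote as a control), with the heterozygote at 9.86 above the null range of 9.42 to 9.65. Its other probe set (1459311_at), below the array median in all 7 animals, differed by 0.11 with overlap. Pde4a differed by -0.02. The Pde4b call was lost, with adjusted p values from 0.0596 to 0.142, without wild type 2 (0.112), wild type 3 (0.110), null 1 (0.0961), null 2 (0.0900) or null 3 (0.0619), and in 5 other settings.

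Pde5a, the cyclic GMP-specific enzyme inhibited by sildenafil, gave probe sets of opposite sign. The 1 that rose (1458341_x_at) read 4.74, 4.51 and 4.14 in wild type, 5.27 in the heterozygote and 5.16, 5.17, 5.31 and 5.20 in null. It was below the array median in all 7 animals, at wild type values under the lower quartile, and its suffix marks probes that may also bind other transcripts. Its rise was 1.68-fold (adjusted p = 0.0358). The brightest Pde5a probe set (1460118_at) differed by -0.51 (adjusted p = 0.214, and from 0.0435 without wild type 1 to 0.832 with the SD covariate). With the heterozygote as a control the call on 1458341_x_at had an adjusted p of 0.408. It was also lost without wild type 2 (0.110), wild type 3 (0.119), null 1 (0.0917), null 2 (0.102) or null 3 (0.0800).

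Among the remaining phosphodiesterases, 0 probe sets passed. Pde2a, which cyclic GMP stimulates, differed by -0.31 with overlap (11.64 ± 0.19, SD, n = 3, against 11.33 ± 0.35, SD, n = 4). Pde1c differed by -0.48 on its brightest probe set, with a null SD of 0.67, and Pde1a by 0.33. The cyclic GMP-inhibited enzymes Pde3a and Pde3b differed by -0.09 and 0.50, and the cyclic AMP-specific Pde8a and Pde8b by -0.11 and -0.41. The cyclic GMP-specific Pde9a differed by 0.08 and the dual enzyme Pde11a, lower in every null animal, by -0.23. The photoreceptor family Pde6 lay between -0.23 and 0.20 over its 6 genes, of which Pde6d, a carrier of prenylated proteins also made outside the retina, read 8.92 in wild type and 9.12 in null. Pde12, whose product removes poly(A) tails in mitochondria and is no cyclic nucleotide phosphodiesterase, differed by 0.37.

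All 6 genes of PKA subunits had differences above 0 on their brightest probe sets, as did 19 of their 20 probe sets, where 39.4% of all genes and 38.0% of all probe sets did, but 1 probe set passed. The share above 0 was larger among bright probe sets. With the filter on dim probe sets it was 51.0% of all genes and 51.1% of all probe sets, with 6 of 6 and 16 of 17 here. With the array SD as a covariate, 5 of the 6 genes and 17 of the 20 probe sets lay above 0, with Prkar1a at -0.18. In that setting 42.8% of all genes and 46.6% of all probe sets did. Prkar2a and Prkar2b, the type II regulatory subunits through which anchoring proteins mainly hold PKA, stood furthest apart between the groups. Prkar2a rose on 1452915_at, which read 8.75, 8.61 and 8.07 in wild type, 9.69 in the heterozygote and 9.46, 9.50, 10.09 and 9.59 in null. The heterozygote lay within the null range, and the lowest null animal, at 9.46, was well above the highest wild type animal at 8.75. Means of 8.48 ± 0.36 (SD, n = 3) and 9.66 ± 0.29 (SD, n = 4) made a 2.27-fold rise (difference 1.18, interval 0.73 to 1.64, adjusted p = 0.0192). Its brightest probe set (1428783_at) read 8.85, 8.88 and 8.63 in wild type, 9.64 in the heterozygote and 9.47, 9.70, 10.03 and 9.23 in null, also without overlap. It just missed the threshold (difference 0.82, interval 0.40 to 1.23, adjusted p = 0.0543), and ranged from 0.0199 without null 4 to 0.424 with the heterozygote as a control. The 2 dimmer Prkar2a probe sets differed by -0.07 and 0.17.

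Prkar2b, the type II subunit most used in brain, did not pass on any of its 3 probe sets, with adjusted p values of 0.0659, 0.120 and 0.0716. On the brightest (1456475_s_at) wild type read 10.91, 10.80 and 10.90, the heterozygote 11.49 and null 11.62, 11.57, 11.55 and 11.13. Null 4 stood apart from the other null animals and nearest to wild type, and without it the difference of 0.60 became 0.71 with an adjusted p of 0.0156, whereas with the heterozygote as a control it was 0.44 (0.450). The other Prkar2b probe sets had 0.0273 (1430640_a_at) and 0.0126 (1438664_at) without null 4, and up to 0.587 and 0.556 in other settings. Null 4 was also the lowest null animal on both other Prkar2b probe sets, at 10.02 and 9.60. On 1438664_at it read 9.60 against 9.62 in wild type 1, and this was the probe set with overlap. Of the null arrays, null 4 had the smallest SD of log2 values, at 1.90.

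The type I regulatory and the catalytic subunits differed less. Prkar1a, the widely expressed type I subunit, differed by 0.22 (adjusted p = 0.515) on its brightest probe set and Prkar1b, the neuronal type I subunit, by 0.24 (adjusted p = 0.326). The catalytic subunit genes Prkaca and Prkacb differed by 0.25 (adjusted p = 0.282) and 0.34 (adjusted p = 0.306). Prkaca read 9.42, 9.62 and 9.53 in wild type, 9.91 in the heterozygote and 9.64, 9.73, 9.90 and 9.82 in null. Those null values lay above all wild type values by a small margin. The heterozygote lay above the wild type mean on 15 of the 20 PKA probe sets. With the array SD as a covariate the difference of Prkar2a on 1452915_at was 0.97 with an adjusted p of 0.145, and with the heterozygote as a control it was 0.88, with 0.336. It also missed the threshold without wild type 2 (0.0614), wild type 3 (0.0770), null 2 (0.0536) or the pair highest in Ttr (0.0533).

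**Figure D3:**
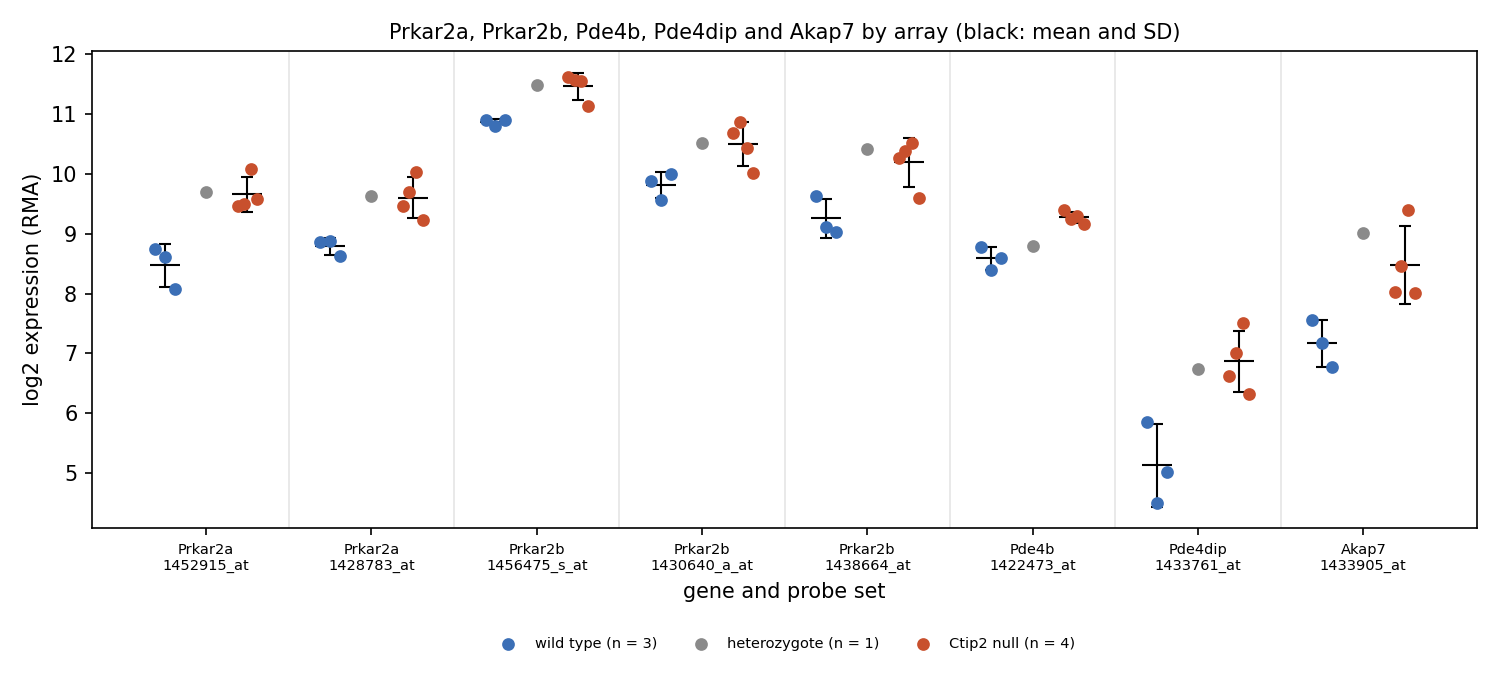
The plot gives the log2 expression value of each animal for 2 probe sets of Prkar2a, the 3 of Prkar2b and 1 each of Pde4b, Pde4dip and Akap7, coloured by genotype, with the mean and SD of each group in black. The heterozygote, in grey, lies with the null animals on Prkar2a, Prkar2b, Pde4dip and Akap7 and near the wild type animals on Pde4b.

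No probe set of the 16 anchoring protein genes passed, out of 41, and 7 had an unadjusted p under 0.05, a share below the 19.6% of all probe sets. The largest differences were in Akap7, a small anchoring protein that places PKA at ion channels, and Akap12, a large scaffold also known as gravin. Akap7 (1433905_at) read 7.55, 7.18 and 6.77 in wild type, 9.01 in the heterozygote and 8.03, 8.45, 9.40 and 8.01 in null. Every null animal and the heterozygote lay above every wild type animal, and the null spread was wide (difference 1.30, interval 0.58 to 2.03, adjusted p = 0.0741). Without null 4 the adjusted p was 0.0448. With the SD covariate the difference was 0.73 (adjusted p = 0.437) and with the heterozygote as a control 0.84 (0.623). The other Akap7 probe set (1422143_at), below the array median in all 7 wild type and null animals, differed by 0.01 with overlap (adjusted p = 0.969). Akap12 read 8.35, 7.45 and 8.42 in wild type, 8.91 in the heterozygote and 8.94, 9.12, 9.47 and 8.85 in null. Every null animal lay above every wild type animal, but wild type 2 lay far below the other wild type animals (difference 1.02, adjusted p = 0.0650, and from 0.0235 to 0.393 over the alternatives).

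Akap5, the postsynaptic anchoring protein that gathers PKA, calcineurin and protein kinase C at glutamate receptors, differed by -0.46, -0.40 and -0.21 on its 3 probe sets. The dimmest of them (1447301_at) was lower in every null animal, at 5.75 to 6.07 against 6.25 to 6.45, and 6.97 in the heterozygote (adjusted p = 0.140). Akap6, which anchors PKA at the nuclear envelope, differed by 0.57 (adjusted p = 0.247). Akap11, whose product also binds the kinase GSK3, differed by 0.23 with overlap. Akap1 of mitochondria, Akap8 of the nucleus and Akap9 of the Golgi and centrosome differed by -0.04, 0.19 and 0.28 on their brightest probe sets. Akap3 and Akap4, known from sperm, differed by -0.40 and -0.31.

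Pde4dip, or myomegalin, entered by its symbol and is not an enzyme but a scaffold of the Golgi and centrosome that binds Pde4d. Its rise on 1 probe set was the largest difference above 0 among the members as fitted. On 1433761_at wild type read 5.86, 4.49 and 5.02, the heterozygote 6.74 and null 6.62, 7.01, 7.51 and 6.32. Wild type lay below the array median, with wild type 2 and 3 under the lower quartile of their arrays, and null lay above or close to the median, with the heterozygote inside the null range. The rise was 3.34-fold (difference 1.74, interval 0.98 to 2.50, adjusted p = 0.0314). Its brightest probe set (1417626_at) differed by 0.50 without overlap (adjusted p = 0.0878), and the other probe sets by 0.45 and 0.03. Without wild type 2 or 3 the adjusted p of the rise was 0.120 or 0.132, without null 1, 2 or 3 it was 0.0648, 0.0985 or 0.0576, with the heterozygote as a control 0.311, and after median centring 0.0673. With the SD covariate the difference was 0.9997 (adjusted p = 0.0573).

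The heterozygote, 1 animal with no test, stood differently among members on which null was low and those on which it was high. Of the 17 probe sets with every null animal above wild type, it read in or beyond the null range on 13, or 76.5%, between the groups on 3, and in the wild type range on 1. On the whole array it did the first on 66.3% of the 3469 such probe sets. Of the 18 with null below wild type, it read in or beyond the wild type range on 10, or 55.6%, and on the null side on 5. On the whole array 20.1% of the 3984 such probe sets had it on the wild type side and 68.6% on the null side. The 10 were not 10 genes, since Pde10a gave 3 of them and Adcy1 2. The heterozygote array had the widest spread of values, and the part of that spread in these positions was not tested.

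Beyond the members, 52 further genes of cyclic nucleotide signalling were listed with earlier results of these data known, and 46 were measured. The shares over all genes below are therefore no independent measure of the list. By the brightest probe set 4 fell, 1 rose and 41 did not pass, where 0.676% of all genes were lower and 2.38% higher, and the list's median difference was -0.08 as over all genes. Among 10 genes of receptor coupling, Gng7, a gamma subunit of the striatal G protein, had a wild type mean of 9.89 ± 0.24 (SD, n = 3) against 8.26 ± 0.34 (SD, n = 4) for null, a 3.10-fold fall (adjusted p = 0.0044). Gnal, its stimulatory alpha subunit that links receptors to Adcy5, fell 1.68-fold, from 11.10, 11.09 and 10.91 to 10.42, 10.15, 10.18 and 10.39 (adjusted p = 0.0179), with the heterozygote at 11.08 beside wild type. The inhibitory alpha subunit gene Gnai2 rose 1.55-fold (adjusted p = 0.0206), with the heterozygote at 10.70 between 10.30 to 10.37 in wild type and 10.87 to 11.04 in null. Gnai1 and Gnao1, also inhibitory, and Gnas, the general stimulatory subunit, were higher in every null animal, by 0.92 (adjusted p = 0.0577), 0.60 (adjusted p = 0.0628) and 0.34 (adjusted p = 0.202).

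Of 6 substrates 2 fell: Arpp21, a cyclic AMP-regulated phosphoprotein, 3.63-fold (adjusted p = 0.0220), and Ppp1r1b, which encodes the phosphatase inhibitor DARPP-32, 2.46-fold (adjusted p = 0.0235). Ppp1r1b is also among the medium spiny neuron markers above. Pkia, Pkib and Pkig, the inhibitors of the catalytic subunit, gave no call: Pkia differed by 0.73 (adjusted p = 0.0651) and Pkig by -0.66 (adjusted p = 0.0831), each without overlap, and Pkib by -0.37. None of the 7 measured cyclic AMP effectors outside PKA, 7 genes of the CREB arm or 13 of the cyclic GMP arm passed by the brightest probe set, where 1, 1 and 3 had an unadjusted p under 0.05, as did 22.2% of all genes by that measure. The largest differences there were in Rapgef2 (0.39), Creb1 (0.50) and Prkg1 (0.44). Counting any probe set, by which 3.22% of all genes were higher, 3 more genes rose: Rapgef3, a cyclic AMP-activated exchange factor, 2.56-fold (adjusted p = 0.0054), the cyclic GMP-dependent kinase gene Prkg1 1.86-fold (0.0131) and Gnai1 1.74-fold (0.0413). The brightest Rapgef3 probe set differed by 0.06 with overlap (adjusted p = 0.782).

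**Figure D4:**
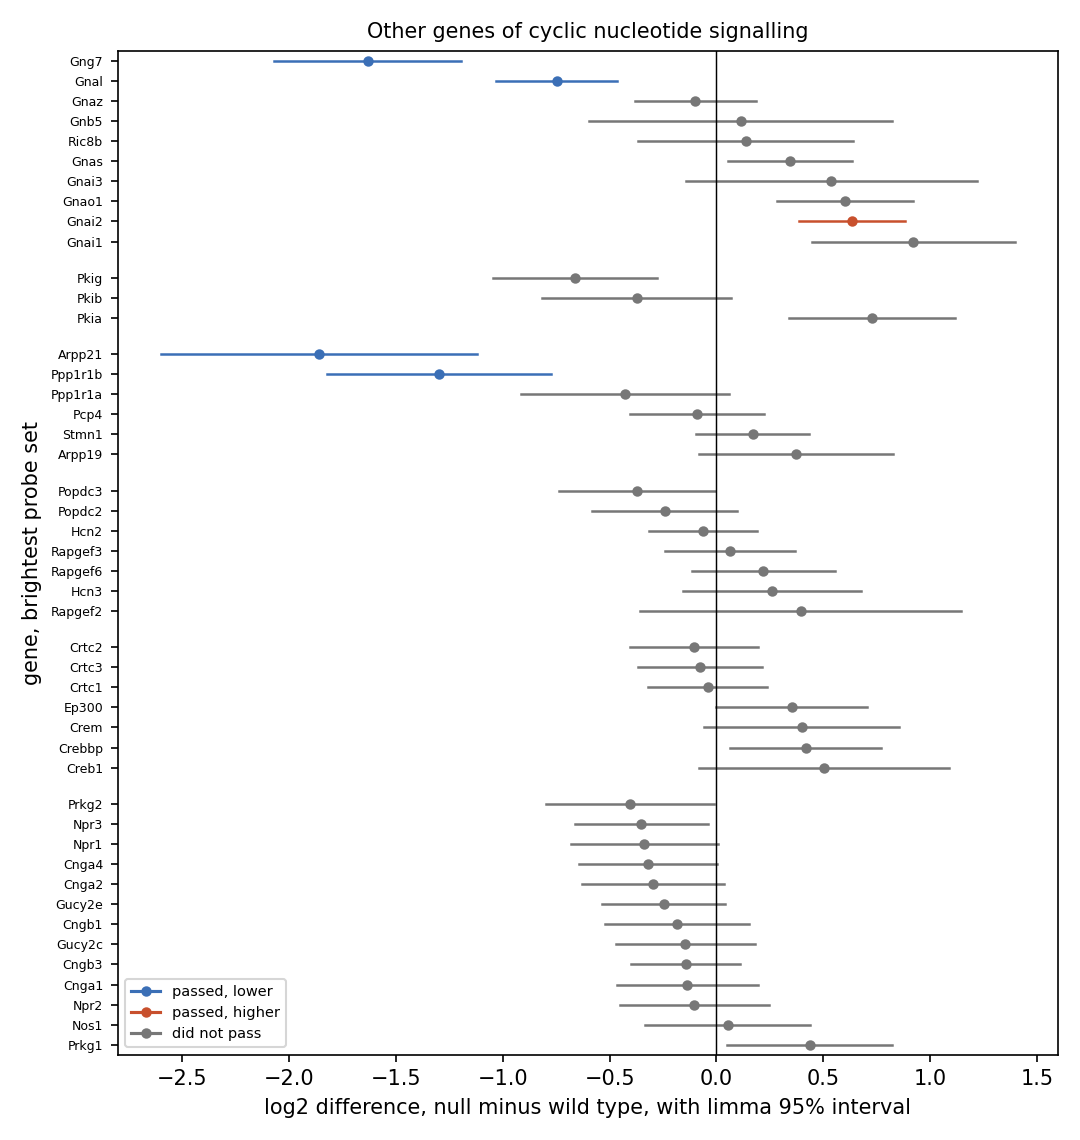
The plot shows the log2 difference between null and wild type, with its limma 95% interval, for the brightest probe set of the 46 measured genes of the wider pathway list, in blocks for receptor coupling, PKA inhibitors, substrates, other cyclic AMP effectors, the CREB arm and the cyclic GMP arm. Blue points passed as lower (Gng7, Gnal, Arpp21 and Ppp1r1b), the red point passed as higher (Gnai2) and grey points did not pass.

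Gng7 was called under all 17 alternatives. Without single arrays the others reached 0.0751 for Gnal (wild type 2; also 0.0572 for wild type 3 and 0.0693 for null 2), 0.0983 for Ppp1r1b (wild type 2; also 0.0585 and 0.0791 for null 1 or 2), 0.0958 for Arpp21 (wild type 2; also 0.0781 for wild type 3 and 0.0623 for null 1) and 0.0898 for Gnai2 (wild type 3; also 0.0698 for wild type 2, and 0.0574 and 0.0766 for null 1 or 2). With the SD covariate they had 0.0923, 0.112, 0.188 and 0.0683 in that order, and Gnai2 had 0.111 with the heterozygote as a control.

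Probe sets of a gene did not always agree in sign, which bears on all counts by probe set. Of the 60 genes, 43 have more than 1 probe set, and for 12 of these the differences lay on both sides of 0. Of the 155 probe sets, 51 were below the array median in all 7 wild type and null animals and 75 above it in all 7. The median SD within groups was 0.20 in wild type and 0.19 in null over the members, and 0.19 and 0.18 over the whole array.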

How the data were processed

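RNA of 8 mice was measured on 1 Affymetrix array each. Each probe set has a log2 value, which the authors computed with RMA per the labels' tool list and the series' design. The version of RMA, the set of arrays it was run on and any filter were not given in the sources used here. RMA equalises distributions before probes are summarised, so it can hide an array-wide change.

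The values were used as deposited. Groups came from the sample titles. Null was set against wild type by limma 3.58.1 (lmFit and eBayes, R 4.3.3), with Benjamini-Hochberg adjustment over all 45037 probe sets and a threshold of 0.05. The heterozygote stayed out of the main fit. Folds are 2 to the power of the log2 difference and errors are SDs. The limma p values test the group difference against the spread between animals, with the variance of each probe set moderated over all probe sets. Genes were named from the platform annotation, by probe sets with 1 symbol, and the brightest is that of highest mean over the 7 arrays. Of the 60 member symbols, 59 are in the RefSeq gene table.

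The members, lists and alternatives were chosen with earlier results of these data known. Named with values were every member gene with a probe set that passed, the member of highest signal and of largest difference in each family, all genes of Adcy, Gucy1, Prkac and Prkar, and from the pathway list those that passed and the largest difference of each group. Others, among them further relatives and members near the threshold, were named after their values were seen. Of the 52 genes of the pathway list, the 46 with a single-symbol probe set were used, and the others were not analysed here. The fit was tested on simulated data. Alternatives were a SAM d score beyond 2, computed here, a trend with a robust prior, a filter on dim probe sets and quantile normalization. Others were median centring, the heterozygote as a group or as a control, the array SD as a covariate and the replicate number as a block. Each array was also left out in turn, as were wild type 1 and null 2 together. For counts, other ways to represent a gene were used too. Plots used matplotlib 3.10.9 (Python 3.11.15).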

Additional observations from a re-analysis of the deposited data

Results flagged for a closer look

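Over the 55 named probe sets, 2 null values lay far from the other 3, where chance marks about 1 group in 20. Pde12 (1454963_at) read 6.96 in null 3 against 7.45 to 7.49 in the other null animals. Prkar2b (1456475_s_at) read 11.13 in null 4 against 11.55 to 11.62 in the others.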

How the results depend on the processing

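The 6 lower and 4 higher member probe sets became 26 and 22 with SAM scores beyond 2, a looser measure that 12.7% and 10.3% of all probe sets passed, 2 and 0 with the array SD as covariate, and 2 and 2 with 1 probe set per gene adjusted over genes. Lower calls were 3 without wild type 1 and null 2. Higher calls were 2 after median centring and 0 with the heterozygote among the controls. With single arrays left out, lower calls ranged from 2 to 6 and higher calls from 0 to 9. Of the 4 lower and 1 higher pathway genes, SAM gave 9 and 7 and the SD covariate 1 and 0. Lower pathway calls were 2 without the pair of arrays, and higher ones 2 with the dim filter, 0 with the heterozygote as a control or quantile normalization and 4 by any probe set. Single arrays left 1 to 5 lower and 0 to 4 higher pathway genes. Over the array, 204 lower and 840 higher probe sets became 93 and 189 with the SD covariate, 96 and 110 with the heterozygote as a control, 328 and 839 after quantile normalization, and from 76 to 443 lower and from 210 to 1733 higher with single arrays left out. The share of calls that were higher was 80.5%, 67.0% with the covariate and 53.4% with the heterozygote as a control. With the replicate number as a block, 212 were lower and 1696 higher, and members gave 8 and 9; null 4, with no wild type partner, does not inform that fit. Arrays sharing a number did not deviate together (r = -0.25, -0.31 and -0.17). Arrays of unlike number had r from -0.42 to 0.37, so these values cannot decide whether the numbers pair the animals. Of the named probe sets that passed, 0 changed sign in any setting, and 3 kept their call in all, of Pde10a (2) and Gng7. Of named genes that did not pass, signs turned for Akap11 (-0.15), Creb1 (-0.04), Gucy1a1 (-0.13), Pde6d (-0.10), Prkar1a (-0.18) and Rapgef2 (-0.15) with the SD covariate, for Gucy1a1 (-0.09) and Pde9a (-0.06) with quantile normalization, for Gucy1a1 (-0.11) and Rapgef2 (-0.00) without wild type 2 and for Adcy8 (-0.01) without wild type 3. The cause of these changes was not tested. The number of arrays limits every value.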
